A study of Rattus with 18 samples.

Results

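The mitosis, spindle and cytokinesis genes are 51 genes whose products switch a cell into mitosis, condense its chromosomes, build the spindle, hold and release the anaphase checkpoint and cut the cell into its daughters. They were chosen by name: probes on a rat expression array were matched to the 51 symbols or their older forms, and the brightest probe stood for a gene with several. Of the 51 genes, 47 were on the array and all 47 were tested, among 23195 genes and transcripts in all. Cenpe, Ndc80, Anln and Cdca3 had no probe matched here. The probe chosen for 36 of the 47 lay well above background on all 18 arrays, and for the other 11 it did not on at least 1 array.

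The arrays measured glomerular RNA from Sprague-Dawley rats (strain label SD) of 200 g with anti-Thy1 nephritis, a model in which an antibody against the Thy1 antigen on rat mesangial cells injures these cells and is followed by their regrowth. Per the labels, 30 rats received the anti-Thy1 antibody and were followed for 1 to 5 days, and 6 rats that received saline served as day 0. At each time point 3 glomeruli were taken from each of 6 rats, and 3 arrays represent each of days 0, 1, 2, 3, 4 and 5. Since the labels tie no rat to an array, the p-values below measure the spread between arrays, which may be partly technical, and the age and sex of the rats were not analysed here. The labels name no transgene or deletion, and all groups share the strain and the method of RNA extraction with TRIzol.

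A cell enters mitosis when cyclin B switches on the kinase Cdk1. The transcripts of Cdk1's partners, the Aurora and Polo kinases, the kinetochore, the checkpoint and the mitotic motors are made mostly late in the cell cycle, in G2 and M phase, under the DREAM complex and the factors Mybl2 and Foxm1, whereas DNA replication genes are made earlier under E2F. In the normal adult glomerulus few cells divide, and mesangial cell division after anti-Thy1 injury is the textbook feature of this model.

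The scanner files put the 75th percentile of the processed signal at 180.7 to 229.2 intensity units on the 3 control arrays and at 251.9 to 452.4 on the other 15, and 55.2% to 69.5% of the 41012 probes lay well above background. Every level below is a log2 processed signal minus the array's own 75th percentile, so 0 is the brightness that 75% of an array's probes do not exceed, and a change is a difference between means of 3 arrays, given where needed with its standard error (SE) from the fit. Changes were tested with limma (two-sided, all 18 arrays in one fit) and called at a Benjamini-Hochberg adjusted p under 0.05 over all 23195 genes and transcripts. All 12 podocyte markers, which mark the labelled tissue, lay above background on every day. So did all 8 proximal tubule and all 5 distal tubule markers, with day 0 means of 8.36 for Umod and 6.15 for Slc34a1. Thy1, the antibody's target and a mesangial marker, fell by 3.25 on day 1 (limma adjusted p = 0.00261) and by 1.84 on day 2 (limma adjusted p = 0.0199). Replicate 1 of day 4 stood apart from replicates 2 and 3 of that day, and replicate 5 of day 5 from replicates 2 and 4, in the mitotic genes and in macrophage, lymphocyte and mesangial markers, and counts of calls on those days are given with and without these arrays. Over all genes control replicate 4 also stood apart, with a median absolute difference of 0.546 from replicate 2 and 0.509 from replicate 5, which differed from each other by 0.159. Over the 47 mitotic genes these differences were 0.392, 0.234 and 0.484. Every contrast with day 0 uses that array, and without it 2, 35, 39, 7 and 2 of the 47 genes were called on days 1 to 5, against 3, 42, 41, 23 and 4 with it. Days 0, 1, 3 and 5 were scanned on one day and days 2 and 4 on another, so for days 2 and 4 scan day and time point cannot be told apart from day 0. Days 3 and 0 share a scan day.

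Kif11, a motor that pushes the spindle poles apart, and Mki67, the proliferation antigen that coats mitotic chromosomes, were each read by a pair of 60-base probes. Their sequences are printed because the probes of Mki67 moved together and the brighter and dimmer probes of Kif11 gave different calls. The sequences and coordinates are those of the array's design, on rat build rn4, and are written 5′ to 3′ along the transcript:
Kif11, probe at transcript base 933, chr1:241682887-241683187, plus strand: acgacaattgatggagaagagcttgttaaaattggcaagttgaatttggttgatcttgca
Kif11, probe at transcript base 2899, chr1:241715804-241715863, plus strand: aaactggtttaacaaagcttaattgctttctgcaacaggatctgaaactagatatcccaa
Mki67, probe at transcript base 8679, chr1:195314463-195314522, minus strand: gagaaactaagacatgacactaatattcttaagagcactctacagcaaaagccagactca
Mki67, probe at transcript base 9492, chr1:195310355-195313039, minus strand: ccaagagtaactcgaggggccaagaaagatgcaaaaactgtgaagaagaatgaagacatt
The first Kif11 probe spans 301 bases of the genome and the second Mki67 probe 2685 bases, each more than its own 60 bases, so each crosses at least 1 gap between aligned blocks of its transcript. The other probes lie in 1 block of 60 bases. An annotation of rn4 was not used here, so exon numbers are not given.

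Most mitotic genes were far above the saline controls on days 2 and 3. On day 2, 42 of the 47 genes rose and 0 fell, against 45.9% of all 23195 genes and transcripts called in either direction (20.8% higher, 25.1% lower). On day 3, 41 rose and 0 fell, against 47.7% of all (21.7% higher, 26% lower). The median change of the 47 was 2.48 on day 2 and 2.72 on day 3 (log2), while the median of all genes was 0.05 and -0.02. With the 6 genes that were below background on every control array set at their lower bound, or at 0 where none could be given, the medians were 2.31 and 2.53. A probe entered the test if it was well above background on all 3 arrays of at least 1 day. Aurkb, Cenpa, Kif2c, Ncapg, Nek2 and Nusap1 entered only through days 2 and 3. Cdc25c entered only through day 2 and Tacc3 only through days 2 to 4. The calls of these genes on those days are therefore not independent of that filter. The 41 genes of day 3 were all among the 42 of day 2, and 33 of the 47 had a higher mean on day 3 than on day 2, an order that was not tested. The 47 genes lie on 14 chromosomes of the GRCr8 assembly, with at most 8 on any of them. In bulk RNA, more cells with a transcript and more transcript per cell cannot be told apart.

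Leaving out 1 array at a time in 18 refits left 33 to 44 calls on day 2 and 35 to 42 on day 3. Of the 42 calls on day 2, 32 held in all 18 refits, and of the 41 on day 3, 35 held in all 18 refits. With normexp background correction of the unprocessed signals, 20 genes rose on day 2 and 25 on day 3, all of them among those called above, with median changes of 1.67 and 1.60. Aspm, Birc5, Bub1, Ccnb2, Cdk1, Cks2, Ect2, Espl1, Incenp, Kif22, Kifc1, Melk, Mki67, Plk1, Pttg1, Top2a, Ttk and Ube2c were called on both days under it. Racgap1 and Smc4 were called on day 2 alone and Bub1b, Ccnb1, Kif20a, Kif23, Mad2l1, Nuf2 and Spc25 on day 3 alone, and the other members were not called on either day. With the slide as a fixed block, 8 of the 41 calls on day 3 remained, since only replicate 1 of day 1 links the controls' slide to the others, and days 2 and 4 have no such value against day 0.

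**Figure D1:**
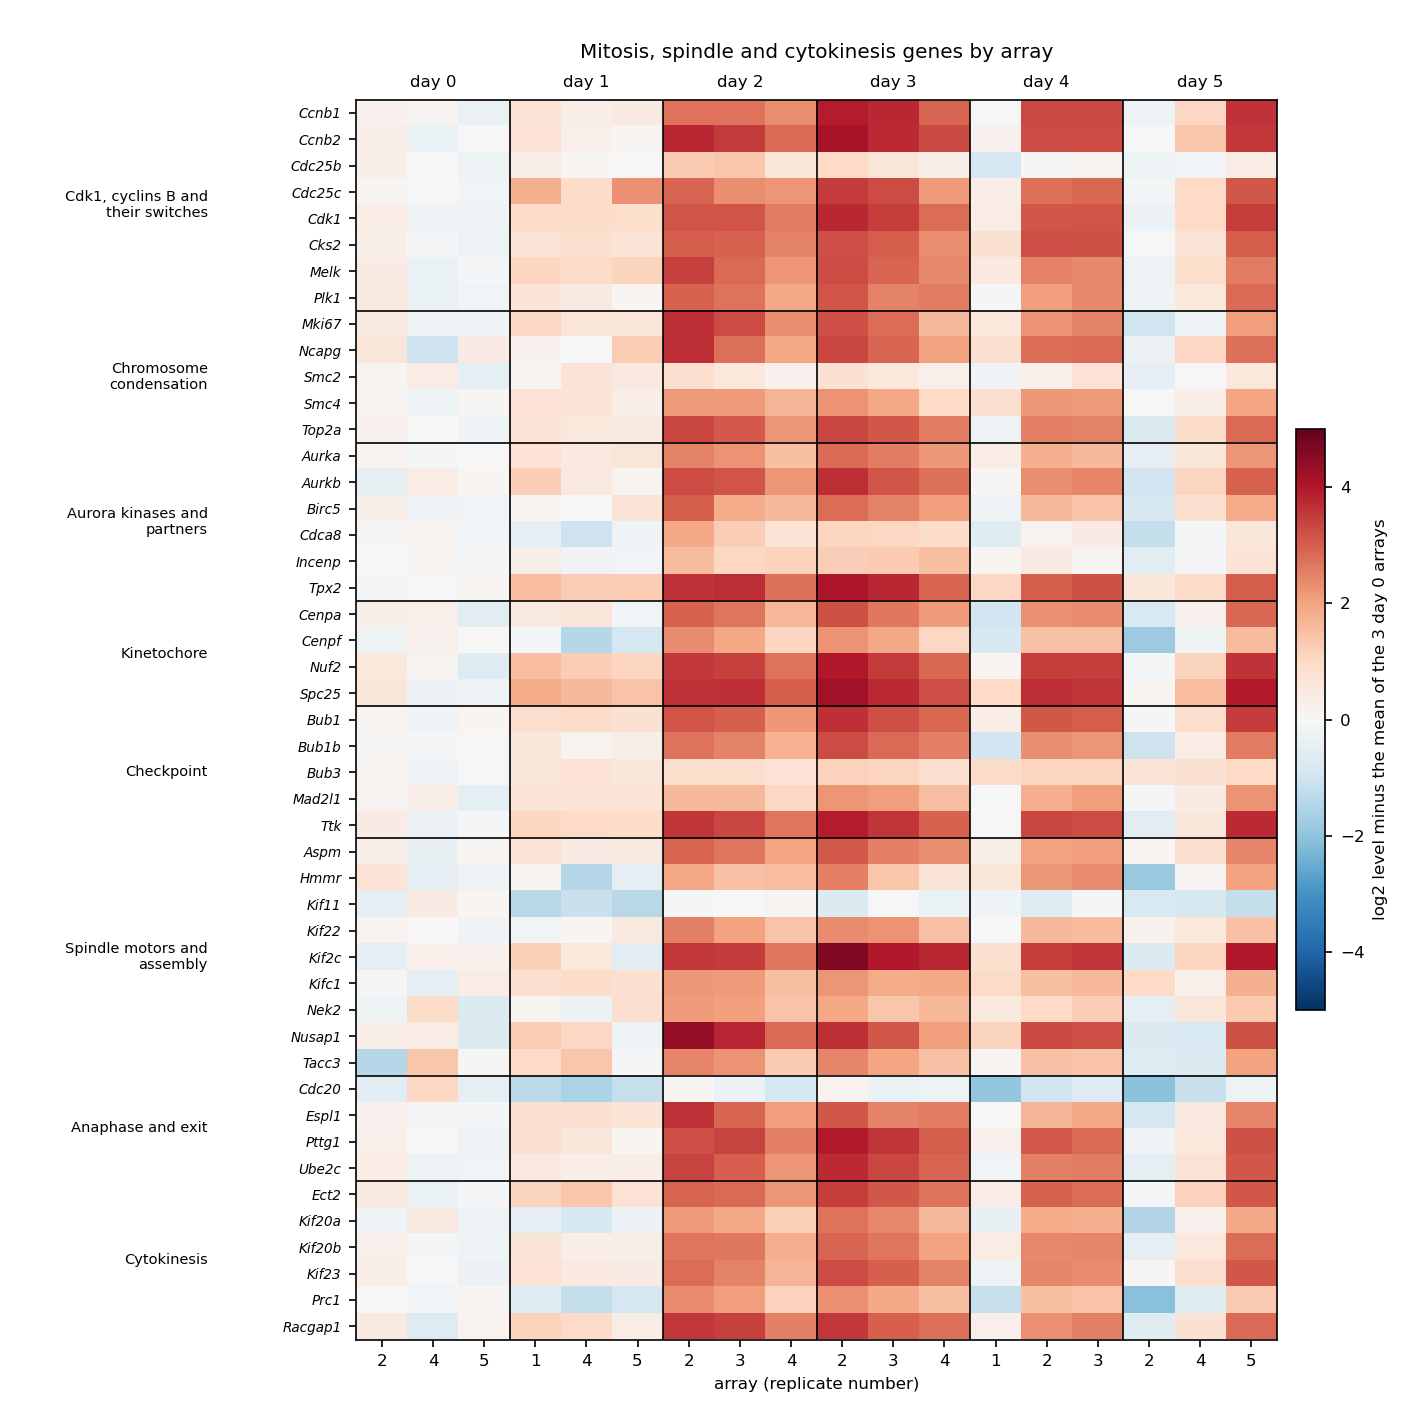
Heat map of the 47 mitosis, spindle and cytokinesis genes (rows, by role) on the 18 arrays (columns, by day and replicate number). Colour gives the log2 level minus the mean of the 3 day 0 arrays. Days 2 and 3 are high on all 6 arrays for most genes, replicate 1 of day 4 and replicate 2 of day 5 lie near the controls, and Kif11, Cdc20, Bub3, Smc2 and Cdc25b show smaller differences than most, or negative ones, on days 2 and 3.

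The switch into mitosis rose as a group. All 8 genes of Cdk1, its cyclins and their regulators rose on day 2 and 7 of 8 on day 3, with median changes of 2.70 and 2.91. Ccnb1, the cyclin B that activates Cdk1, read -1.37, -1.51 and -1.92 on the control arrays, 1.11, 1.13 and 0.72 on day 2 and 2.33, 2.15 and 1.33 on day 3. All 6 of those day 2 and day 3 arrays were above the 3 controls and the 3 arrays of day 1. The change was 2.59 ± 0.85 (SE; limma adjusted p = 0.0229) on day 2 and 3.54 ± 0.85 (SE; limma adjusted p = 0.00401) on day 3, and the day 2 call was lost on leaving out day 0 replicate 4, day 0 replicate 5, day 2 replicate 2 or day 2 replicate 3 (limma adjusted p up to 0.0633). Cdk1, the kinase itself, read 2.19, 1.66 and 1.62 at day 0, 4.98, 4.99 and 4.37 on day 2 and 5.59, 5.28 and 4.60 on day 3, again without overlap. Its change was 2.95 ± 0.77 (SE; limma adjusted p = 0.00724) on day 2 and 3.33 ± 0.77 (SE; limma adjusted p = 0.00328) on day 3, a 10.1-fold difference.

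Ccnb2, the other mitotic cyclin B, rose by 3.37 on day 2 and 3.72 on day 3 (limma adjusted p = 0.00395 and 0.00198). Cks2, a small subunit that docks onto Cdk1, rose by 2.82 and 2.86. Plk1, the Polo kinase that promotes entry and spindle assembly, rose by 2.53 and 2.73, and Melk, a kinase expressed in dividing cells, by 2.83 and 2.86. Cdc25c and Cdc25b are phosphatases that remove the inhibitory phosphates from Cdk1. Cdc25c was not well above background on any control array, and its level on day 2 was at least 1.53-fold higher (limma adjusted p = 0.0136). A bound of this kind sets the bright group's mean against the dim arrays at the lowest signal that counted as above background, or at the probe's own signal where that was higher. The p-value printed beside a bound is that of the change without the bound. A gene given a bound against the controls passed the background filter only through other days. On day 3 Cdc25c lay above background on 2 of 3 arrays and was called higher (limma adjusted p = 0.00473). With normexp its values were -0.38 on day 2 and -0.06 on day 3, both uncalled.

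Cdc25b moved least of the 8 on both days. It read -1.70, -2.01 and -2.25 at day 0 and -0.68, -0.58 and -1.44 on day 2, a rise of 1.09 ± 0.29 (SE; limma adjusted p = 0.00833). On day 3 it read -0.99, -1.38 and -1.68, where the lowest array overlapped the controls and the change of 0.63 ± 0.29 (SE; limma adjusted p = 0.0871) was not called. On days 4 and 5 its change was -0.20 and 0.02, both uncalled.

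**Figure D2:**
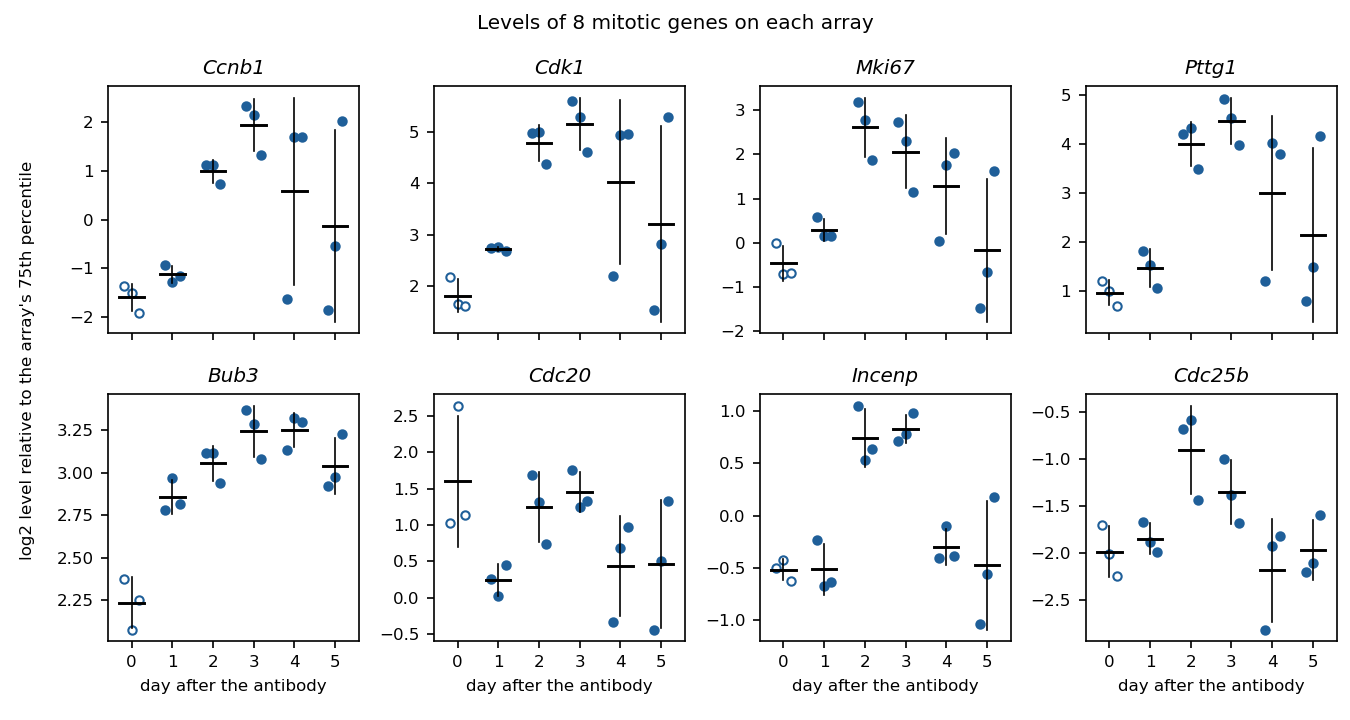
Levels of 8 genes (log2 relative to the array's 75th percentile) against day after the antibody, 1 panel per gene with its own axis range. Circles are arrays, open for the saline controls, horizontal bars are means and vertical lines are 1 SD over 3 arrays. Ccnb1, Cdk1, Mki67 and Pttg1 are high on all arrays of days 2 and 3 and split on days 4 and 5, Bub3 is above the controls on every later array, and control replicate 4 is the highest Cdc20 array.

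Chromosome condensation genes rose in 4 of 5 cases on both days, with median changes of 2.78 and 2.53. Mki67, read here by its brighter probe, gave -0.0047, -0.71 and -0.69 at day 0, 3.18, 2.79 and 1.87 on day 2 and 2.74, 2.31 and 1.14 on day 3. The lowest array of either day was above all controls and all day 1 arrays. Its rise was 3.08 ± 0.68 (SE; limma adjusted p = 0.00303) on day 2 and 2.53 ± 0.68 (SE; limma adjusted p = 0.00761) on day 3. Its dimmer probe gave 2.89 and 2.58. Top2a, the enzyme that untangles sister DNA, rose by 2.87 and 3.01 (limma adjusted p = 0.00745 and 0.00506). Ncapg, a condensin subunit that was below background on all control arrays, was at least 2.88-fold and 2.83-fold higher (limma adjusted p = 0.00821 and 0.00775). The day 2 call of Ncapg was lost without day 0 replicate 4 (limma adjusted p = 0.0508), and with normexp its values of 0.05 and 0.12 were not called. With Ncapg at its bound the group's medians were 1.99 and 1.72.

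Of the condensin motor subunits, Smc4 was called and Smc2 was not. Smc4 rose by 1.99 ± 0.46 (SE; limma adjusted p = 0.00378) on day 2 and 1.72 ± 0.46 (SE; limma adjusted p = 0.00725) on day 3. Smc2, its partner in the same complex, read -3.10, -2.84 and -3.71 at day 0, -2.37, -2.69 and -3.01 on day 2 and -2.46, -2.69 and -2.98 on day 3. Its arrays overlapped between all of these days, and its changes of 0.53 and 0.51 were not called (limma adjusted p = 0.154 and 0.169). The difference between Smc4 and Smc2 was not tested.

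All 6 Aurora kinase and passenger genes rose on days 2 and 3, with median changes of 2.12 and 2.49. Aurka, the Aurora kinase of the spindle poles, rose by 2.07 ± 0.50 (SE; limma adjusted p = 0.00483) on day 2 and 2.52 ± 0.50 (SE; limma adjusted p = 0.00144) on day 3. Tpx2, which activates Aurka on the spindle, read -3.85, -3.75 and -3.61 at day 0, -0.12, -0.06 and -0.98 on day 2 and 0.32, 0.02 and -0.84 on day 3. The rise of 3.57 on day 3 (limma adjusted p = 0.000686) held without any single array, as did the 3.35 of day 2 (limma adjusted p = 0.0011).

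The 4 subunits of the chromosomal passenger complex, which corrects faulty attachments and later directs the cleavage furrow, all rose. Aurkb, its kinase, was below background on all control arrays and was at least 5.77-fold higher on day 2 and at least 7.27-fold on day 3 (limma adjusted p = 0.00886 and 0.00432), and with normexp its values of 0.38 and 0.67 were not called. Birc5, the subunit known as survivin, rose by 2.16 and 2.46. Cdca8, known as borealin, rose by 1.27 and 1.01 (limma adjusted p = 0.018 and 0.0485). Its day 2 call was lost without day 2 replicate 2 (limma adjusted p = 0.0809), and its day 3 call was lost in 12 of 18 refits (limma adjusted p up to 0.112, without day 0 replicate 5).

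Incenp, the scaffold of the complex, rose against both day 0 and day 1. It read -0.50, -0.42 and -0.62 at day 0, -0.23, -0.67 and -0.64 on day 1, 1.05, 0.53 and 0.64 on day 2 and 0.72, 0.79 and 0.98 on day 3. Day 1 overlapped the controls and every array of days 2 and 3 lay above both. The rise was 1.26 ± 0.25 (SE; limma adjusted p = 0.00169) on day 2, 1.34 ± 0.25 (SE; limma adjusted p = 0.001) on day 3, and 1.26 ± 0.25 (SE; limma adjusted p = 0.0431) from day 1 to day 2, the last call being lost in 12 of 18 refits (limma adjusted p up to 0.179, without day 2 replicate 2). By day 4 its arrays read -0.41, -0.10 and -0.39, a change of 0.22 from day 0 that was not called.

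Kinetochore genes rose in 3 of 4 cases on both days, with median changes of 2.82 and 3.06. Spc25, a subunit of the Ndc80 complex that grips the spindle microtubule, read -2.67, -3.52 and -3.48 at day 0, -1.35, -1.60 and -1.80 on day 1, 0.39, 0.43 and -0.25 on day 2 and 0.96, 0.50 and 0.01 on day 3. Each day 1 array was above all controls and below all arrays of days 2 and 3. The rise was 3.41 ± 0.79 (SE; limma adjusted p = 0.0037) on day 2 and 3.72 ± 0.79 (SE; limma adjusted p = 0.00197) on day 3. Nuf2, another subunit of that complex, rose by 3.22 and 3.46 (limma adjusted p = 0.00813 and 0.00485).

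Cenpa, the histone variant that marks the centromere, was above background on 2 of 3 control arrays and rose by 2.42 and 2.65 (limma adjusted p = 0.0322 and 0.0199). The day 2 call was lost on leaving out day 0 replicate 4, day 0 replicate 5, day 2 replicate 2 or day 2 replicate 3 (limma adjusted p up to 0.0907) and the day 3 call lost on leaving out day 0 replicate 5 or day 3 replicate 2 (limma adjusted p up to 0.0691). Cenpf, a large protein of the outer kinetochore, read -2.84, -2.35 and -2.55 at day 0, -2.64, -4.01 and -3.47 on day 1, -0.23, -0.64 and -1.51 on day 2 and -0.35, -0.65 and -1.55 on day 3. All arrays of days 2 and 3 were above the controls, yet the changes of 1.78 and 1.73 missed the threshold (limma adjusted p = 0.059 and 0.0649).

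All 5 checkpoint genes rose on both days, with median changes of 2.31 and 2.88. Ttk, the kinase Mps1 that starts the checkpoint, rose by 3.20 ± 0.90 (SE; limma adjusted p = 0.0108) on day 2 and 3.47 ± 0.90 (SE; limma adjusted p = 0.00621) on day 3. Bub1, the kinase that recruits the other checkpoint proteins, read -0.87, -1.21 and -0.91 at day 0, 2.14, 2.01 and 1.17 on day 2 and 2.64, 2.22 and 1.87 on day 3. Its arrays did not overlap the controls, and its rise was 2.77 ± 0.75 (SE; limma adjusted p = 0.00888) and 3.24 ± 0.75 (SE; limma adjusted p = 0.00332). Mad2l1, which binds and blocks Cdc20, rose by 1.44 and 1.93, and its day 2 call was lost in 10 of 18 refits (limma adjusted p up to 0.125, without day 0 replicate 5). Bub1b, known as BubR1, rose by 2.31 and 2.88 at its brightest probe, while the changes at its 3 probes ran from 0.32 to 3.38 over days 2 and 3. Its day 2 call was lost in 5 of 18 refits (limma adjusted p up to 0.088, without day 0 replicate 4).

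Bub3, the shared partner of Bub1 and BubR1, was above the controls from day 1 on. It read 2.37, 2.07 and 2.25 at day 0, 2.78, 2.97 and 2.82 on day 1, 3.12, 3.12 and 2.94 on day 2, 3.37, 3.29 and 3.08 on day 3, 3.14, 3.32 and 3.30 on day 4 and 2.92, 2.98 and 3.23 on day 5. Every later array was above every control. It was the 1 gene of the 47 called higher on all 5 days, by 0.62, 0.82, 1.01, 1.02 and 0.81 (limma adjusted p = 0.00533, 0.000941, 0.000494, 0.000199 and 0.00113). The 12 reference genes, among them Ppia, Hprt1 and Ywhaz, had a median change of 0.48 to 0.69 over days 1 to 5. They did not move as one: Polr2a was called lower on each of these days, by 1.48 to 2.14, and Sdha was uncalled throughout. The controls of Polr2a read 1.06, 2.51 and 1.12, with control replicate 4 the highest. Scaled to those 12 genes instead of the 75th percentile, the rise of Bub3 was 0.17 on day 1, which was not called (limma adjusted p = 0.331), and 0.43, 0.57, 0.45 and 0.34 on days 2 to 5, all still called, the last at the edge of the threshold. With normexp its values of 0.18, 0.93, 1.07, 1.12 and 0.44 were all uncalled (limma adjusted p = 0.958, 0.13, 0.0825, 0.0532 and 0.847).

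Spindle motors and assembly factors rose in 7 of 9 cases on both days, with median changes of 1.99 and 1.98. Kif2c, a motor that shortens microtubules at the centromere, was below background on all arrays of days 0 and 1. It was at least 2.91-fold higher than day 0 on day 2 and at least 5.48-fold on day 3 (limma adjusted p = 0.0116 and 0.00266). With normexp its values were -0.04 and 0.53, both uncalled. Nusap1, which bundles spindle microtubules, was also below background at day 0 and was at least 3.78-fold and 2.27-fold higher (limma adjusted p = 0.00481 and 0.014). The day 3 call of Nusap1 was lost without day 3 replicate 2 (limma adjusted p = 0.0568), and with normexp its values of 0.27 and 0.07 were not called. Nek2, a centrosome kinase below background at day 0, was at least 2.01-fold and 1.75-fold higher (limma adjusted p = 0.00492 and 0.00812). Normexp turned Nek2 to -0.29 and -0.18, both uncalled.

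Aspm, a protein of the spindle poles, rose by 2.52 on day 2 and 2.64 on day 3 (limma adjusted p = 0.00223 and 0.00143). Kif22, a motor that pushes chromosome arms, rose by 1.99 and 2.02. Kifc1, a minus-end motor that focuses spindle poles, rose by 1.94 and 1.98, and its probes gave 1.94 to 2.21 over both days. Tacc3, which links spindle microtubules, rose by 1.99 and 1.95 (limma adjusted p = 0.0404 and 0.0427). Only 1 of its control arrays was above background. The day 2 call was lost on leaving out day 0 replicate 2, day 0 replicate 5, day 2 replicate 2 or day 2 replicate 3 (limma adjusted p up to 0.174), and the day 3 call was lost in 6 of 18 refits (limma adjusted p up to 0.191, without day 0 replicate 2), and with normexp its values were -0.02 and 0.08, both uncalled. Hmmr, a spindle protein that also binds hyaluronan, read -3.43, -4.53 and -4.37 at day 0, -2.20, -2.63 and -2.56 on day 2 and -1.60, -2.72 and -3.46 on day 3. Its lowest day 3 array overlapped the highest control, and its changes of 1.65 and 1.52 were not called (limma adjusted p = 0.0921 and 0.118).

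Kif11 depended on the probe. At the brighter probe, at transcript base 2899, it read -0.63, 0.26 and -0.04 at day 0, -1.51, -1.25 and -1.53 on day 1, -0.22, -0.17 and -0.01 on day 2, -0.88, -0.12 and -0.48 on day 3, -0.36, -0.78 and -0.25 on day 4 and -0.90, -0.92 and -1.33 on day 5. Day 1 lay below all controls, day 2 lay among them, and day 5 lay below them again. It fell by 1.29 on day 1 (limma adjusted p = 0.00272) and by 0.92 on day 5 (limma adjusted p = 0.00751), and its changes of 0.0047 on day 2 and -0.35 on day 3 were not called. From day 1 to day 2 this probe rose by 1.30 ± 0.24 (SE; limma adjusted p = 0.0333), a call lost in 7 of 18 refits (limma adjusted p up to 0.124, without day 1 replicate 5).

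The dimmer Kif11 probe, at transcript base 933, did not clear background on days 0 and 1 but did on 3 of 3 arrays of days 2 and 3, 2 of 3 of day 4 and 1 of 3 of day 5. Its levels were -6.11, -5.83 and -5.77 at day 0, -2.34, -3.37 and -3.94 on day 2 and -3.15, -4.62 and -3.87 on day 3. In a fit over all 27826 probes that passed the filter, it was at least 2.68-fold higher than day 0 on day 2 (limma adjusted p = 0.00511) and at least 1.69-fold on day 3 (limma adjusted p = 0.0204), and it was called higher on day 4 with no bound (limma adjusted p = 0.027). This probe passed the filter only through days 2 and 3. Of the 11 genes with more than 1 probe, 10 had every probe above day 0 on both days and Kif11 was the exception. The 2 probes of Ect2 differed in size, from 0.70 to 3.10. The other 36 genes rest on 1 probe.

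**Figure D3:**
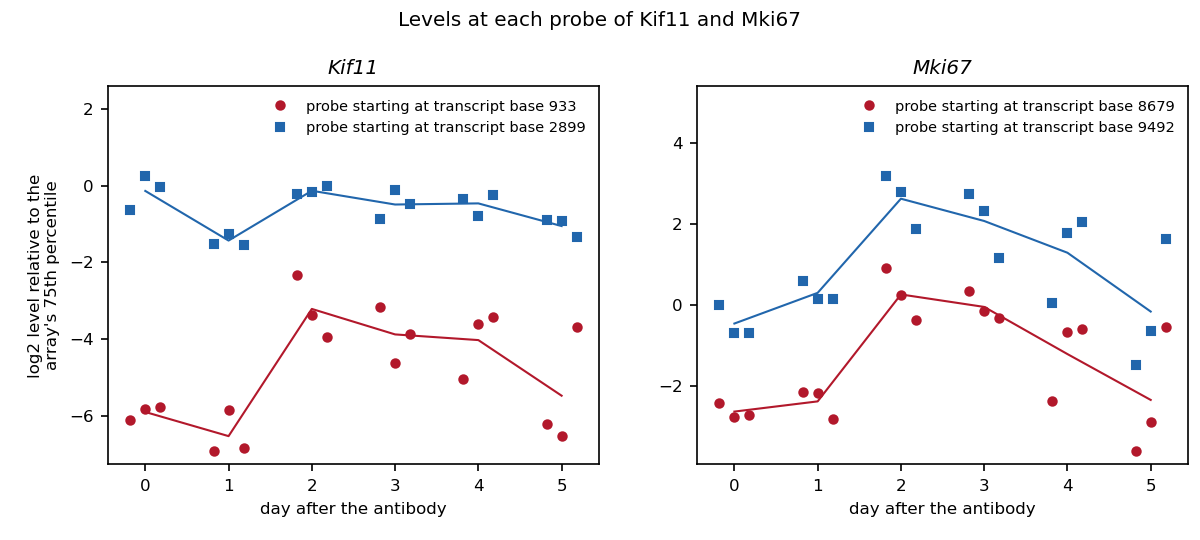
Levels (log2 relative to the array's 75th percentile) at each probe of Kif11 (left) and Mki67 (right) against day after the antibody. Points are arrays and lines join the means of 3 arrays. Both Mki67 probes peak on day 2, while the Kif11 probe at base 933 is higher on days 2 and 3 than at day 0 and the probe at base 2899 is not.

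Genes of anaphase and mitotic exit rose in 3 of 4 cases on both days, with median changes of 2.87 and 3.02. Pttg1, the securin that holds separase until anaphase, read 1.20, 0.99 and 0.69 at day 0, 4.20, 4.32 and 3.49 on day 2 and 4.93, 4.53 and 3.98 on day 3. The 6 later arrays lay far above the controls, and the rise was 3.04 ± 0.76 (SE; limma adjusted p = 0.00546) and 3.52 ± 0.76 (SE; limma adjusted p = 0.00214). Espl1, the separase itself, rose by 2.88 and 2.72 (limma adjusted p = 0.00322 and 0.00366). Ube2c, which hands ubiquitin to the anaphase-promoting complex, rose by 2.86 and 3.33 (limma adjusted p = 0.00766 and 0.00292).

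Cdc20, the activator of that complex at anaphase, did not rise on any day. It read 1.03, 2.64 and 1.14 at day 0, 0.25, 0.02 and 0.45 on day 1, 1.68, 1.32 and 0.74 on day 2, 1.76, 1.25 and 1.33 on day 3, -0.34, 0.68 and 0.97 on day 4 and -0.44, 0.50 and 1.33 on day 5. Control replicate 4 was the highest of the 18 arrays, and day 1 lay below all controls. It fell by 1.36 on day 1 (limma adjusted p = 0.0346), and its changes of -0.36 and -0.15 on days 2 and 3 were not called. Over the refits without 1 array the day 2 value ran from -0.64 to 0.16 and the day 3 value from -0.44 to 0.37, the upper ends being those without control replicate 4. The day 1 fall was lost on leaving out day 0 replicate 4, day 1 replicate 1 or day 1 replicate 4 (limma adjusted p up to 0.193), and with array median scaling it was -1.03 (limma adjusted p = 0.0659).

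All 6 cytokinesis genes rose on both days, with median changes of 2.35 and 2.73. Racgap1, which forms the centralspindlin complex with Kif23 at the spindle midzone, read -2.15, -3.24 and -2.41 at day 0, 0.93, 0.82 and -0.10 on day 2 and 0.93, 0.39 and 0.15 on day 3, without overlap. Its rise was 3.15 ± 0.71 (SE; limma adjusted p = 0.00322) and 3.09 ± 0.71 (SE; limma adjusted p = 0.003). Ect2, the exchange factor that activates RhoA at the furrow, rose by 2.65 ± 0.69 (SE; limma adjusted p = 0.00681) on day 2 and 3.10 ± 0.69 (SE; limma adjusted p = 0.00254) on day 3. Kif23 rose by 2.33 and 2.92, and Kif20b, a midzone motor, by 2.38 and 2.54. The day 2 call of Kif23 was lost without day 2 replicate 2 (limma adjusted p = 0.0503).

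Kif20a, the motor that carries passenger proteins to the midzone, rose by 1.75 and 2.25, and Prc1, which crosslinks midzone microtubules, by 1.88 and 1.89. The limma adjusted p was 0.0486 and 0.0146 for Kif20a and 0.0465 and 0.0434 for Prc1. The day 2 call of Kif20a was lost in 14 of 18 refits (limma adjusted p up to 0.125, without day 2 replicate 2) and its day 3 call lost without day 3 replicate 2 (limma adjusted p = 0.0557). For Prc1 the day 2 call was lost in 12 of 18 refits (limma adjusted p up to 0.126, without day 2 replicate 2) and the day 3 call lost in 11 of 18 refits (limma adjusted p up to 0.122, without day 3 replicate 2). On day 1 Prc1 read -2.60, -3.13 and -2.80 against -1.91, -2.07 and -1.85 at day 0, with every day 1 array below every control, and the change of -0.90 was not called (limma adjusted p = 0.332).

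Few mitotic genes were called on day 1 in the fit of all 18 arrays. That fit gives a gene 1 SE for all days, so the spread on days 4 and 5 entered the day 1 tests. Bub1 read -0.11, -0.10 and -0.23 on day 1, above all controls, and its change of 0.85 ± 0.75 (SE; limma adjusted p = 0.375) was not called. Only Bub3 rose on day 1 and only Cdc20 and Kif11 fell, 3 of 47 genes against 39.9% of all genes called in either direction (19.2% higher, 20.7% lower). The median change of the 47 was 0.52, against 0.06 for all genes, and 40 of them were above 0. The median of the 12 reference genes on day 1 was close to that of the 47. Most of them were above 0, Hprt1 by 0.47 and Ppia by 1.14 among them, while Polr2a changed by -1.48. Spc25 and Tpx2 changed by 1.64 and 1.34, both uncalled. The number of calls depended on how the 18 arrays were scaled and which entered the fit: 7 with array median scaling (6 higher), 6 without day 4 replicate 1, 7 without day 5 replicate 5, 12 with days 0 and 1 fitted alone (10 higher) and 0 with normexp (2 at an unadjusted p under 0.05). With reference gene scaling, 0 rose and 2 fell.

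Many DNA replication genes, which act before mitosis, were called on day 1. Of 35 tested, 26 rose on day 1, 30 on day 2, 33 on day 3, 22 on day 4 and 20 on day 5, with median changes of 1.28, 1.55, 1.68, 1.09 and 0.95. Over all genes, 19.2%, 20.8%, 21.7%, 25.6% and 20.9% rose on those days. With normexp limma called 0 of the 35 replication genes on day 1 (15 at an unadjusted p under 0.05), 11 on day 2, 14 on day 3, 8 on day 4 and 0 on day 5 (5 at an unadjusted p under 0.05), with a day 1 median of 0.75. Without control replicate 4, 17 rose on day 1 and 10 on day 5. Without replicate 1 of day 4, 28 rose on day 4, and without replicate 5 of day 5, 9 rose on day 5. Mcm2, a subunit of the replicative helicase, rose by 2.15 on day 1 and 2.03 on day 3, and Orc1, of the origin recognition complex and above background on 1 control array, by 2.76 and 3.75. Rfc2, of the clamp loader, rose by 1.38 and 1.45, and Rpa2, of the single-strand binding complex, by 1.17 and 1.69. The day 1 medians of the 2 lists were not tested against each other. A fit of days 0 and 1 alone is not given here for the replication list. Array by array, the 3 day 1 arrays had replication medians of 1.22, 1.36 and 1.24 and mitotic medians of 0.70, 0.51 and 0.44 above the day 0 mean, so the replication list was higher on each of them, whereas on each array of days 2 and 3 the mitotic list was higher.

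**Figure D4:**
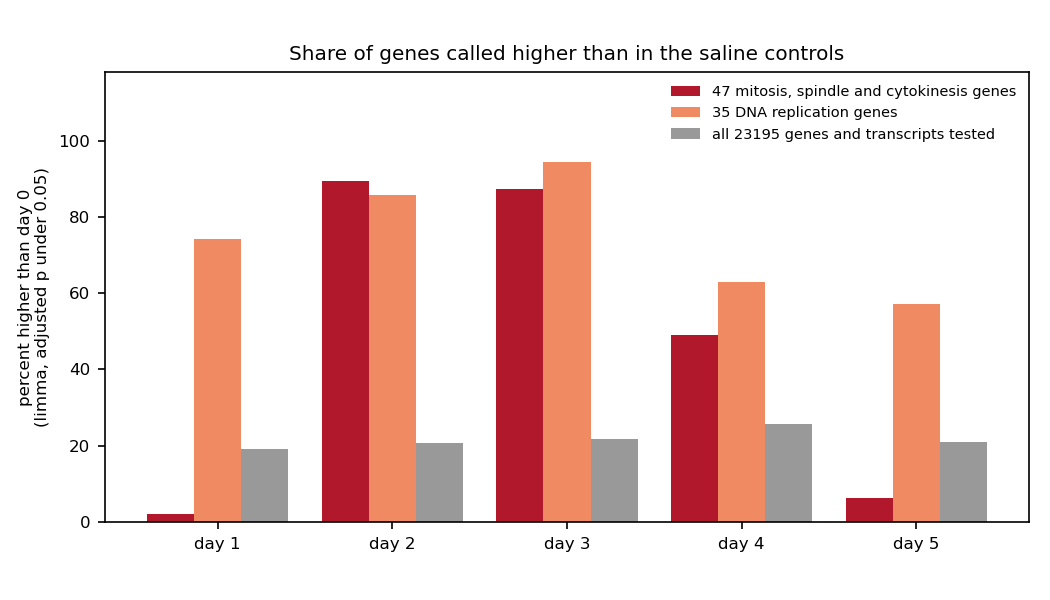
Percent of genes called higher than in the saline controls on each day (limma, adjusted p under 0.05) for the 47 mitosis, spindle and cytokinesis genes, 35 DNA replication genes and all 23195 genes and transcripts tested. On day 1, 1 of 47 mitotic and 26 of 35 replication genes are called, and on day 2 42 and 30.

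Compared directly, days 2 and 3 were above day 1 for all 47 genes, by medians of 1.95 and 2.14, but few differences passed the threshold. From day 1 to day 2 limma called 2 genes higher, Incenp and Kif11, against 0.388% of all genes called in either direction (0.177% higher, 0.211% lower), and 41 of the 47 had an unadjusted p under 0.05. From day 1 to day 3 limma called 0 of the 47, against 0.00431% of all genes, with 43 at an unadjusted p under 0.05. The count moved with the fit: with only the 2 days fitted, 24 genes were called from day 1 to day 2 and 31 from day 1 to day 3. Without day 5 replicate 5 the counts were 5 and 7. From day 1 to day 2, 0 were called on leaving out day 1 replicate 4 or 5, any day 2 array or day 4 replicate 3, and 1 on leaving out day 0 replicate 2 or 5, day 1 replicate 1, day 3 replicate 3, day 4 replicate 2 or day 5 replicate 4. On the slide that carried both, the 2 arrays of day 3 lay above the 2 arrays of day 1 for all 47 genes, with a median difference of 2.47, and by 2.38 for Mki67 and 3.46 for Ccnb1.

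On days 4 and 5 the arrays of a day disagreed. On day 4, 23 of the 47 rose and 0 fell, against 52.2% of all genes (25.6% higher, 26.7% lower), and the median change was 1.59. Array median scaling called 36 higher, and reference gene scaling called 6 higher and 3 lower. All 23 had been called on days 2 and 3. They included 6 of the 8 switch genes, 5 of 9 spindle genes, 3 of 5 condensation genes, 2 of 4 kinetochore, 2 of 5 checkpoint, 2 of 6 Aurora and passenger, 2 of 6 cytokinesis and 1 of 4 exit genes. On day 5, Bub3, Kifc1 and Tpx2 rose and Kif11 fell, 4 of 47 genes against 44.3% of all genes in either direction (20.9% higher, 23.4% lower), with a median change of 0.94. Array median scaling called 14 higher and 0 lower on day 5, and reference gene scaling 1 higher and 2 lower. Kifc1 rose by 1.00 (limma adjusted p = 0.0222) and Tpx2 by 1.52 (limma adjusted p = 0.0498), and both calls were lost with reference gene scaling. The day 5 call of Kifc1 was lost on leaving out day 0 replicate 4, day 5 replicate 2 or day 5 replicate 5 (limma adjusted p up to 0.114), and that of Tpx2 lost in 13 of 18 refits (limma adjusted p up to 0.254, without day 5 replicate 5).

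The spread on days 4 and 5 came with single arrays. On day 4, Ccnb1 read -1.64, 1.69 and 1.69 on replicates 1, 2 and 3, so replicate 1 lay among the controls and the other 2 among the arrays of days 2 and 3. Cdk1 read 2.19, 4.94 and 4.95, Mki67 0.04, 1.77 and 2.03 and Pttg1 1.19, 4.03 and 3.80. Replicate 1 was the lowest of its day for 46 of the 47 genes, against 33.4% of all genes. The mean of replicates 2 and 3 exceeded it by a median of 2.16, by more than 1 for 39 of 47 genes, and by 3.36 for Nuf2. Replicates 2 and 3, which share a slide, differed by a median absolute 0.0986 over the 47 genes.

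On day 5 the high array was the exception. Ccnb1 read -1.85, -0.55 and 2.02 on replicates 2, 4 and 5, Cdk1 1.54, 2.83 and 5.27, Mki67 -1.48, -0.66 and 1.63 and Pttg1 0.79, 1.48 and 4.16. In each of these genes replicate 5 lay within the range of the 6 arrays of days 2 and 3, and replicate 2 lay below at least 2 of the 3 controls. Replicate 5 was the highest of its day for 46 of 47 genes, against 32.1% of all, and exceeded the mean of replicates 2 and 4 by a median of 2.66 and by more than 1 for 42 genes. The 3 day 5 arrays share a slide. Counted per array, 18, 43 and 44 of the 47 genes lay above all 3 controls on replicates 1, 2 and 3 of day 4, where 41.1%, 39.7% and 40.7% of all genes did. On replicates 2, 4 and 5 of day 5 the counts were 4, 31 and 45, against 40.6%, 39.5% and 38% of all genes.

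**Figure D5:**
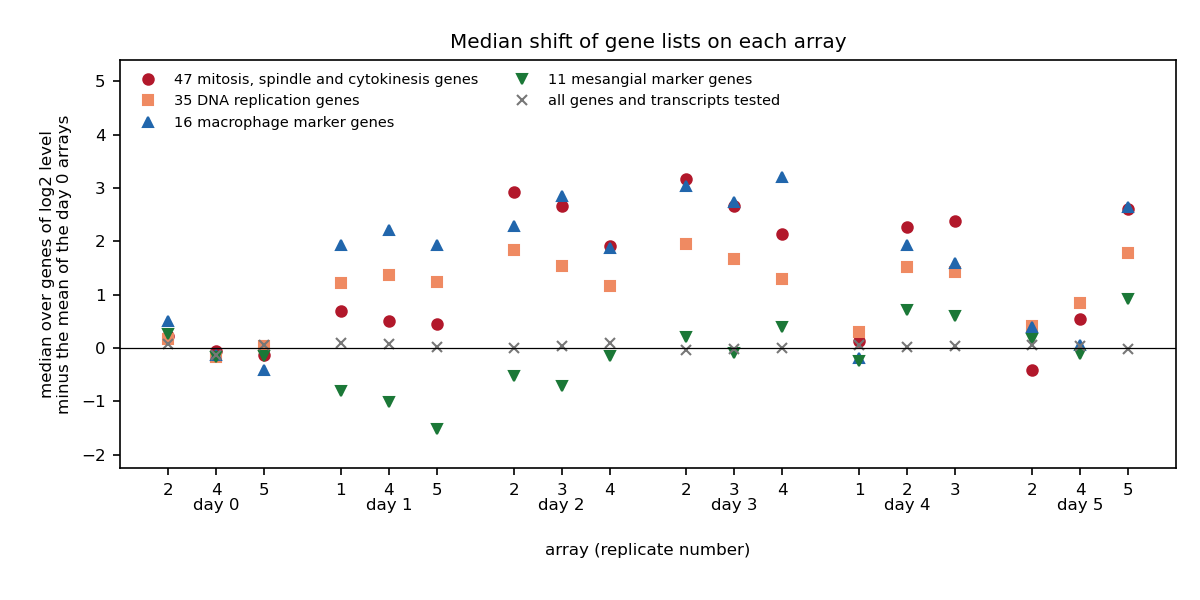
Median over the genes of each list of the log2 level minus the day 0 mean, for each of the 18 arrays (replicate numbers within days). The mitotic genes, the DNA replication genes and the macrophage markers are low together on replicate 1 of day 4 and replicates 2 and 4 of day 5 and high together on the other arrays of those days, while the median of all genes stays near 0.

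The counts on these days turned on single arrays. Without replicate 1 of day 4, 37 genes rose on day 4, while 6 were called without replicate 2 and 7 without replicate 3. Leaving out control replicate 4 gave 7 and control replicate 5 gave 10. Only Bub3, Cks2, Kifc1, Smc4, Spc25 and Tpx2 were called on day 4 in all 18 refits. On day 5, 19 genes were called without replicate 2 (18 higher), 3 without replicate 5 (1 higher) and 2 without control replicate 4. From day 2 to day 4 limma called 0 of 47, against 0.0992% of all genes (0.0604% higher, 0.0388% lower), with 6 at an unadjusted p under 0.05 and a median change of -0.94, and 1 was called without day 5 replicate 5. From day 3 to day 5 it called 0, against 0.00862%, with 40 at an unadjusted p under 0.05 and a median of -1.80. Without day 5 replicate 5 that comparison called 36 genes lower. Within slides, day 5 lay below day 3 for all 47 genes (median -1.36, with 1 day 3 array), and day 4 replicate 1 below day 2 for 46 of 47 (median -2.35).

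The medians of macrophage, lymphocyte and mesangial markers were low and high on the same arrays of days 4 and 5 as the mitotic genes. On days 1 and 2 the lists parted. Most macrophage markers were already higher on day 1, and mesangial markers fell or were uncalled on both days. The 16 macrophage markers tested, Cd68 and Adgre1 among them, had 11 called higher on day 1, 14 on day 2, 15 on day 3, 5 on day 4 and 2 on day 5. Their summed level, in units of the array's 75th percentile, was 41.4 to 74.6 on the controls, 215 to 299 on day 1, 185 to 324 on day 2, 386 to 459 on day 3, 47.8 to 208 on day 4 and 57.4 to 295 on day 5. The median macrophage change was -0.19, 1.93 and 1.60 on replicates 1, 2 and 3 of day 4 and 0.39, 0.05 and 2.64 on replicates 2, 4 and 5 of day 5, with the same arrays low and high as for the mitotic genes. Lymphocyte and natural killer markers had medians of -0.50, 1.07 and 1.38 on those day 4 arrays and 0.74, 0.13 and 1.48 on those of day 5. Mesangial markers had -0.24, 0.72 and 0.61 and then 0.17, -0.10 and 0.93. On replicate 5 of day 5 the proximal tubule median was -0.75, against 0.42 and 0.09 on replicates 2 and 4. The summed proximal tubule level was 893, 554 and 708 on replicates 1, 2 and 3 of day 4. On replicates 2, 4 and 5 of day 5 it was 790, 680 and 421. It was 568, 679 and 750 on replicates 2, 3 and 4 of day 2 and 384, 497 and 658 on those of day 3. On days 2 to 5 it was highest on the array with the lowest mitotic median. On replicates 1, 4 and 5 of day 1 it was 779, 759 and 680, in the order of the mitotic medians. On day 1 the macrophage median was 1.94, 2.21 and 1.93, while the mitotic medians were 0.70 or less. Of 13 lymphocyte and natural killer markers tested, 3, 9, 10, 0 and 1 rose on days 1 to 5. Of 11 mesangial markers, 5 fell and 0 rose on day 1, 2 fell and 0 rose on day 2, and on days 3, 4 and 5 there were 2, 3 and 1 higher and 1 lower each. Of 14 endothelial markers, 1, 1, 1, 0 and 0 rose and 4, 3, 3, 6 and 4 fell on days 1 to 5 against day 0. Without replicate 1 of day 4, 12 macrophage, 3 lymphocyte and 4 mesangial markers rose on day 4 and 5 endothelial markers fell. Without replicate 5 of day 5, 1 macrophage, 1 lymphocyte, 1 mesangial and 1 endothelial marker rose on day 5 and 5 endothelial markers fell. Without control replicate 4, the macrophage markers that rose were 10, 10, 15, 1 and 1 and the lymphocyte markers 0, 6, 10, 0 and 1 on days 1 to 5. Over all genes, 19.2%, 20.8%, 21.7%, 25.6% and 20.9% rose and 20.7%, 25.1%, 26%, 26.7% and 23.4% fell on days 1 to 5. The part of these cells in the mitotic result was not tested.

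Other genes of the same machinery were taken from lists that hold none of the 47. The background filter applied to them as to the 47, so calls of genes dim at day 0 are not independent of it. Over all genes, 20.8% rose and 25.1% fell on day 2, and 21.7% rose and 26% fell on day 3. Of 25 other centromere and kinetochore genes, 19 rose and 2 fell on day 2 and 17 rose and 2 fell on day 3, with medians of 1.87 and 1.85. Cenpm was at least 7.16-fold higher on day 2 (limma adjusted p = 0.002), Ska2, of the complex that couples kinetochores to microtubules, rose by 2.35 (limma adjusted p = 0.000568), and Cenpl and Spdl1 rose by 1.55 and 1.87. Of 28 other spindle genes, 17 rose and 3 fell on day 2 and 19 rose and 3 fell on day 3. Plk4, the kinase of centriole duplication, was at least 9.23-fold higher on day 2 (limma adjusted p = 0.00133). With normexp, 3 of the 25 centromere genes and 7 of the 28 spindle genes rose on day 2, and Cenpm at 0.68 and Plk4 at 0.92 were not called. Stmn1, which destabilises microtubules, rose by 2.18 and Haus4, of the augmin complex, by 2.41.

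Numa1, which anchors spindle microtubules at the poles, went the other way: it fell by 2.06, 2.15, 2.31, 2.86 and 2.05 on days 1 to 5 (limma adjusted p = 0.00211, 0.000814, 0.000547, 0.000145 and 0.00107). Its controls read 2.87, 4.20 and 3.16, with control replicate 4 the highest. Of 15 other G2 and M phase genes, 13 rose on each of days 2 and 3. Several of these 13 passed the background filter only through days 2 and 3, so their calls are not independent of it. Ccna2, the cyclin A of S and G2 phase, rose by 3.14 and 3.55 (limma adjusted p = 0.00786 and 0.0035). Gmnn, which blocks a second round of replication, was up by 2.24 on day 1 already (limma adjusted p = 0.014) and by 3.26 on day 2. Wee1, the kinase that holds Cdk1 inactive, rose by 1.24, 1.29, 1.19, 1.27 and 1.12 on days 1 to 5, all called.

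Of 13 other genes of the anaphase-promoting complex and its regulators, 6 rose on day 2 and 7 on day 3 and Cdc27 fell on both, with medians of 0.56 and 0.68, close to the 0.52 and 0.69 of the reference genes. In either direction 45.9% and 47.7% of all genes were called on those days (20.8% and 21.7% higher). Fbxo5, the inhibitor of that complex known as Emi1, was at least 7.68-fold higher on day 2 (limma adjusted p = 0.00161; 0.74 with normexp, uncalled), while the subunits Anapc1, Anapc15 and Cdc26 rose by 0.68, 0.80 and 0.97. Cdc27, a subunit of the complex named after its values were seen, fell by 0.48 and 0.48 (limma adjusted p = 0.0415 and 0.0409). Its controls read 0.20, 0.87 and 0.16, with control replicate 4 the highest. Of 14 cohesin and condensin genes, 9 rose on day 2 and 8 on day 3. Their medians of 0.46 and 0.45 lay below the 0.52 and 0.69 of the reference genes. The condensin subunits Ncapd2 and Ncapd3 rose by 1.63 and 0.95 and the cohesin genes Smc1a and Stag1 by 0.42 and 0.48.

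Of 18 regulators of the cell cycle programme, 6 rose and 2 fell on day 2 and 9 rose and 2 fell on day 3. The shares of all genes were 20.8% higher and 25.1% lower on day 2 and 21.7% higher and 26% lower on day 3. In either direction 45.9% and 47.7% of all genes were called, so the day 2 count does not set the regulators apart. Foxm1, the factor that drives G2 and M phase genes, changed by 0.75 on day 1, which was not called (limma adjusted p = 0.143), rose by 2.03 ± 0.40 (SE; limma adjusted p = 0.00168) on day 2 and by 1.95 ± 0.40 (SE; limma adjusted p = 0.00168) on day 3, and was at 0.75 and 0.74 on days 4 and 5, again uncalled. Without replicate 1 of day 4 it was called on day 4, at 1.15 (limma adjusted p = 0.0267), and without replicate 5 of day 5 its day 5 value was 0.28. Tfdp1, the partner of E2F factors, rose by 0.95, 1.34 and 1.50 on days 1 to 3. E2f3 fell on all 5 days, by 0.82 on day 3 (limma adjusted p = 0.00252). Its controls read 0.59, 1.23 and 0.47, with control replicate 4 the highest. With normexp no gene named here outside the 47 was called on day 1, Thy1 included, and on day 2 Anapc1, Anapc15, Cdc27, E2f3, Mcm2, Ncapd2, Ncapd3, Ska2, Smc1a, Spdl1, Stag1 and Thy1 lost their calls, as did Cenpm, Fbxo5, Orc1 and Plk4, all with the same sign.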

How the data were processed

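Per the file headers, the authors scanned 18 single-colour Agilent rat arrays (1.65 µg RNA, Cy3) with Feature Extraction 10.7.3.1 and deposited processed intensity values, already background-subtracted, with rn4 coordinates. Here control spots and outlier flags were left out, spots of a probe averaged, log2 intensity taken and each array's 75th percentile subtracted. The authors' deposited value table holds log2 values and served only as an alternative. No source used here states its scale or centring. Probes were named by accession (18028), symbol (3170) or older symbol (400) through the GRCr8 table, and 19414 kept the file's name or none. A probe well above background on all 3 arrays of at least 1 day passed (27826 probes), and the brightest per gene was tested with limma 3.58.1 in R 4.3.3 over 6 days. Simulated data for day 2 against day 0, with 23195 genes, recovered 54 of 100 genes changed by log2 1 and 78 of 100 changed by log2 2, with 8 false calls. Alternatives were other scalings, background correction, probe filters, blocks, 2-day fits and 18 refits without 1 array. The single-probe Kif11 result and the refits of the other lists were chosen after seeing the data. The genes and lists were chosen with earlier results of these data known. Every one of the 47 genes is named, with Thy1, and up to 4 genes of each other list by lowest adjusted p on day 3 against day 0; marker lists are given by counts and defining genes. A gene that this rule picks is not reported here. No spot was saturated (0 on every array).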

Additional observations from a re-analysis of the deposited data

How the results depend on the processing

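These are counts of called genes among the 47. Normexp gave 0 on day 1 (main 3; 2 at an unadjusted limma p under 0.05), 20 on day 2, 25 on day 3, 8 on day 4, 0 on day 5 (1 unadjusted) and 0 from day 1 to day 2 (29 unadjusted). Array median scaling gave 7 on day 1, 36 on day 4 and 14 on day 5, all 14 higher against 3 of 4 in the main setting. Quantile normalization gave 5 on day 1. Reference gene scaling gave 9 on day 4 (6 higher, 3 lower), 1 from day 1 to day 2 and 1 from day 2 to day 4, and on day 5 it split 3 calls into 1 higher and 2 lower. These scalings moved the median of all genes against day 0 by 0.332 to 0.425, 0.037 to 0.074 and -0.569 to -0.394. Without the filter 0 were called from day 1 to day 2 (41 unadjusted), and with the mean of a gene's probes 2 on day 5. The slide as a fixed block gave 1 on day 1, 8 on day 3 and 0 on day 5 (3 unadjusted), and no value for days 2 and 4 against day 0 or day 2 against day 1. Fits of 2 days alone gave 12 on day 1, 1 on day 5, 24 from day 1 to day 2 and 31 from day 1 to day 3. The authors' table gives no value for days 1, 3 and 5 against day 0 or day 2 against day 1. Leaving out 1 array gave 2 to 7 on day 1, 33 to 44 on day 2, 35 to 42 on day 3, 6 to 37 on day 4, 2 to 19 on day 5, and 0 to 5, 0 to 7, 0 to 1 and 0 to 36 for days 2 and 3 against 1, 4 against 2 and 5 against 3.

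The replicate numbers do not pair the arrays: same-numbered arrays of different days had deviations correlated at -0.377 to 0.281 (27 pairs). With the replicate number as a block, 3, 37, 38, 14 and 4 genes were called on days 1 to 5 and 0 from day 1 to day 2 (30 unadjusted).

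Over 126 results of single genes and 3754 alternative values, 3291 kept direction and call, 405 lost the call, 35 gained it and 23 changed sign. Under median scaling Cdc20 was at 0.016 on day 2 and 0.24 on day 3, and Kif11 at 0.038 on day 3. Kif11 was at -0.39 on day 2 with reference scaling, -0.11 with the replicate block, 0.84 on day 3 with the mean of its probes and 2.02 at its dimmer probe, below background at day 0. Normexp turned Cdc25c to -0.38, -0.062 and -0.35 on days 2, 3 and 4, Smc2 to -0.15 and -0.067 and Nek2 to -0.29 and -0.18 on days 2 and 3, Kif2c to -0.038 and -0.095 on days 2 and 4, Tacc3 to -0.015 on day 2, and Ncapg to -0.10 and Nusap1 to -0.070 on day 4. Without 1 array Cdc20 ran from -0.64 to 0.16 on day 2 and -0.44 to 0.37 on day 3, and Kif11 from -0.24 to 0.20 on day 2. The cause was not tested. Dim controls limit the size of change that can be given for Aurkb, Cdc25c, Kif2c, Ncapg, Nek2 and Nusap1 to the bounds stated.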

Other observations

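Chek1, the kinase that delays mitosis while DNA is unreplicated or damaged, was called higher on all 5 days. It was not well above background on the controls and was at least 5.61-fold, 5.22-fold, 6.12-fold, 3.95-fold and 3.52-fold higher on days 1 to 5 (limma adjusted p = 0.00102, 0.000528, 0.000437, 0.000306 and 0.000968). Its arrays read -6.49, -5.88 and -6.04 at day 0, -2.20, -1.99 and -2.26 on day 1, -3.98, -1.97 and -2.01 on day 4 and -3.81, -3.19 and -1.46 on day 5. Without replicate 1 of day 4 the bound on day 4 was 6.25-fold, and without replicate 5 of day 5 that on day 5 was 2.20-fold, both called (limma adjusted p = 0.000623 and 0.00442). With normexp Chek1 was not called on any day (limma adjusted p of 0.439 or more). All day 1 arrays of Chek1 lay above all controls. The same was true of mitotic genes that were not called on day 1, Bub1, Ttk, Mki67 and Spc25 among them. By limma, 1 of the 47 mitotic genes was called higher on that day.

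Single arrays of days 2 and 3 also stood low or high over most mitotic genes. Replicate 4 of day 2 was the lowest of its day for 44 of 47 genes, against 31.6% of all genes, and its mitotic median was 1.92 above day 0 where replicates 2 and 3 stood at 2.92 and 2.66. Replicate 4 of day 3 was the lowest for 40 of 47, against 38.4% of all, with a median of 2.14 where replicates 2 and 3 stood at 3.16 and 2.66. Replicate 2 of day 3 was the highest for 45 of 47, against 34.5% of all. Macrophage medians on day 3 were 3.03, 2.74 and 3.21 on replicates 2, 3 and 4. On day 2 the summed macrophage level was 247.19, 323.76 and 185.46 on these replicates. Summed lymphocyte and natural killer levels were 23.745, 22.122 and 12.982 on day 2 and 33.278, 40.811 and 14.975 on day 3. The summed proximal tubule level was highest on replicate 4 of days 2 and 3, and the mesangial one on that of day 2 only. The part of these cells in the mitotic order was not tested.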
